A study of Mus musculus with 60 samples.

Results

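Mouse hepatocytes on day 3 of culture with IL6 (IL6-iHPCs-D3, passage 0) were compared with freshly isolated hepatocytes. The 6 samples, 3 per group, were those labelled IL6-iHPCs-D3 (P0) and Hepatocytes, out of 33 in the same table and 60 in the whole series. Genes were kept when at least 3 of the 6 samples reached 1 FPKM (fragments per kilobase of transcript, scaled to the mapped fragments of the library), which left 11299 of 19355 genes. Both groups came from adult wild-type C57BL/6 mice (C57BL/6J in the study's methods), and the hepatocytes were isolated by perfusing the liver. Whether mice were pooled is not stated in the sources used here. D3 cells had been plated in hepatocyte culture medium with IL6 (IL6-HCM), which also holds EGF, HGF, dexamethasone and insulin. The study calls the cultured cells iHPCs, for induced hepatic progenitor cells. No sample of this day was grown without IL6, so plating, the medium and IL6 cannot be told apart at D3. According to a legend of the study, samples of the same group are repeats of a technical kind. Every p-value here therefore measures the spread between such repeats and not the variation between mice, and an exact permutation test of 3 against 3 samples could not go below 0.1.

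Hepatocytes are the main epithelial cells of the liver. They secrete most plasma proteins, make bile acids and urea, keep up blood glucose and break down drugs. When they are taken out of the liver and plated they are known to lose much of this programme while they spread and take up cytoskeletal and matrix genes. IL6 binds its receptor together with the shared chain gp130 (Il6st), which activates JAK kinases and the transcription factor STAT3. In liver this pathway is known for the acute phase response and for priming hepatocytes to divide after tissue loss.

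Library depths inferred from the values were 56.4 M to 77.5 M reads (M, mega) per hepatocyte sample and 56.9 M to 67.8 M per D3 sample. The reads recovered per gene summed to 1.066 to 1.083 times these depths. Differences are given as D3 minus hepatocytes on the log2(FPKM + 1) scale, which understates the change of genes at low levels. On the values as deposited 8096 genes (71.7%) passed an adjusted p-value of 0.05 (limma, Benjamini-Hochberg over all genes tested) and 2-fold. Of these 6603 (58.4% of the genes tested) were higher and 1493 (13.2%) lower, and the median gene was 1.29 higher. The 20 highest genes held 33.3% to 34.7% of the summed FPKM in hepatocytes and 15.4% to 16.5% at D3. After median-of-ratios scaling, which sets the typical gene to about no change, the median was 0.06 and the calls (57.5%) were 3051 higher (27.0%) and 3445 lower (30.5%). The share of higher genes among those called was thus 81.6% as deposited and 47.0% after scaling.

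Gene length moved with the difference. Spearman's rho between length and difference was 0.499 over 11297 genes, a description across genes that are not independent replicates. After scaling, the median difference was -2.09 over the 688 genes of up to 1 kb and 1.28 over the 1317 genes above 6 kb. The median of D14 minus D3 in the same bins ran only from -0.10 to -0.24. Within groups, the median deviation of D3 replicate 2 from the mean of the other D3 samples was 0.298 over the genes of up to 1 kb. Hepatocyte replicate 2 deviated from the other hepatocyte samples by -0.135 over these genes and by 0.133 over the genes above 6 kb. The part of length in the results was not tested. Another scale was therefore added after the data had been seen, in which the length trend was divided out of the scaled D3 values. It called 49.3% of the genes, 3087 genes higher (27.3%) and 2480 lower (21.9%). In what follows a gene "rose" or "fell" only when it was called in that direction on all 3 scales, and is "not called" otherwise unless a scale is named. Single differences are given as deposited unless a scale is named. This held for 3619 genes (32.0%), of which 2233 (19.8%) rose and 1386 (12.3%) fell. Without both replicates numbered 2 2301 rose and 1411 fell.

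**Figure D1:**
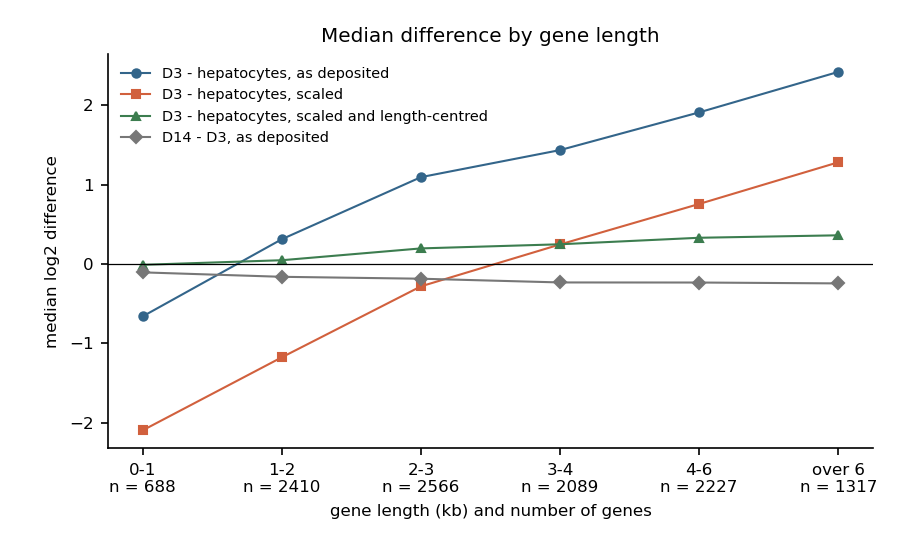
Median log2 difference of D3 minus hepatocytes in 6 bins of gene length (kb, with the number of genes per bin), for the values as deposited, after scaling and after length centring, with D14 minus D3 for comparison. As deposited and after scaling the medians climb with length, from -0.66 to 2.42 and from -2.09 to 1.28, and after length centring they stay between -0.01 and 0.36.

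The largest falls were genes of secreted proteins and of metabolism. Serpina1e, one of the mouse alpha-1-antitrypsin genes, stood at 12796, 12706 and 14593 FPKM in hepatocytes and at 1.202, 1.34 and 1.42 at D3. Its level was 10110 times lower, a difference of -12.49 ± 0.09 (SE; adjusted p = 1e-12). Apoa2, an HDL apolipoprotein, went from 10745, 9262 and 10320 FPKM to 1.22, 1.54 and 0.970. Both genes ranked among the 20 highest in hepatocytes, and at D3 neither exceeded 1.54 FPKM in any sample. Cyp2e1, a cytochrome P450 of the pericentral lobule, was measured at 2569, 2824 and 2807 FPKM and then at 0.0808, 0.0593 and 0.0384. Bhmt, which remethylates homocysteine from betaine, was at 2170, 2186 and 2379 FPKM and then at 0.467, 0.534 and 0.452. Fabp1, the liver fatty acid binding protein, had 4117, 3754 and 4218 FPKM in hepatocytes, and only 1 D3 sample held any reads of it, 3 in all. The other 5 of the 10 largest falls were Mup12, Car3, Serpina1d, Gm21320 and Ces1c, with differences from -11.47 to -10.01. The Mup and Serpina1 genes have near-identical copies, so reads may have been split between them in the authors' counting.

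The largest rises were of another kind. Lcn2, lipocalin-2, an iron-siderophore binding acute phase protein, was at 2.97, 3.18 and 2.49 FPKM in hepatocytes and at 2055, 2175 and 1636 at D3. This was 679 times higher, a difference of 8.97 ± 0.12 (SE; adjusted p = 9.1e-12). Ctgf (Ccn2), a matricellular target of YAP, was at 0.0123, 0.0215 and 0.0443 FPKM and then at 403, 370 and 450. Cd63, a tetraspanin of late endosomes, was at 0.171, 0.164 and 0.563 FPKM and then at 485, 554 and 481. Each of these genes was at 3.18 FPKM or less in every hepatocyte sample and at 370 or more in every D3 sample. Sox4, a transcription factor of developing bile ducts, was at 0.0496, 0.0391 and 0 FPKM and then at 372, 323 and 426. Fbln2, the matrix protein fibulin-2, had no read in any hepatocyte sample and 307, 282 and 303 FPKM at D3, at least 28600-fold above the floor of 3 reads per library. Cldn4, a tight junction claudin, had 2 reads in the 3 hepatocyte samples together and 252, 253 and 293 FPKM at D3. Anxa3, Nid1, S100a11 and Klf6 completed the 10, with differences from 7.76 to 7.41. For all 20 genes the groups did not overlap, as for 93.7% of the genes tested.

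**Figure D2:**
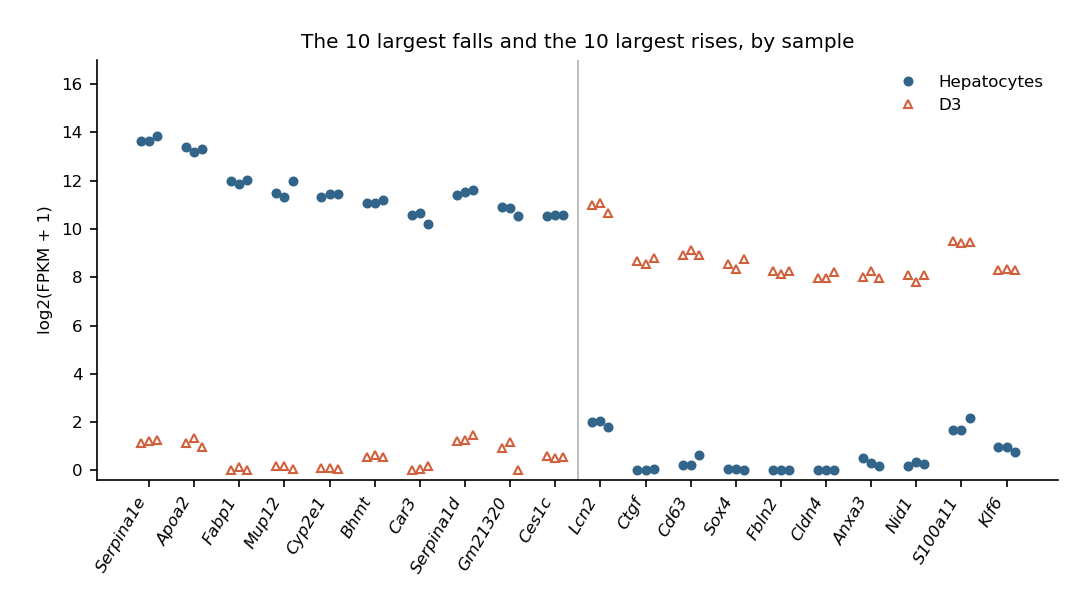
log2(FPKM + 1) of the 10 largest falls and the 10 largest rises, 1 point per sample, hepatocytes and D3 in different colours. The 3 points of a group lie close together for every gene, and for no gene do the groups meet.

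Gene lists for the liver's functions, for signaling, for the cell cycle and for cell structure were written from general knowledge. Earlier results of these data were known when they were written, so the lists are not independent of the data. Each is described by how many of its tested members rose or fell. A gene had to reach 1 FPKM in 3 samples to be tested. A gene that did so through a single group had to differ (2565 genes under 1 FPKM in all hepatocyte samples and 353 in all D3 samples), so these counts describe the lists and support no difference between a list and other genes. The median difference of a list is given after scaling, where that of all genes was 0.06. Over all genes tested 19.8% rose and 12.3% fell, and counts near these shares say nothing particular of a list. Members that are named beyond the 2 largest rises and falls of a list were chosen after their values were seen.

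**Figure D3:**
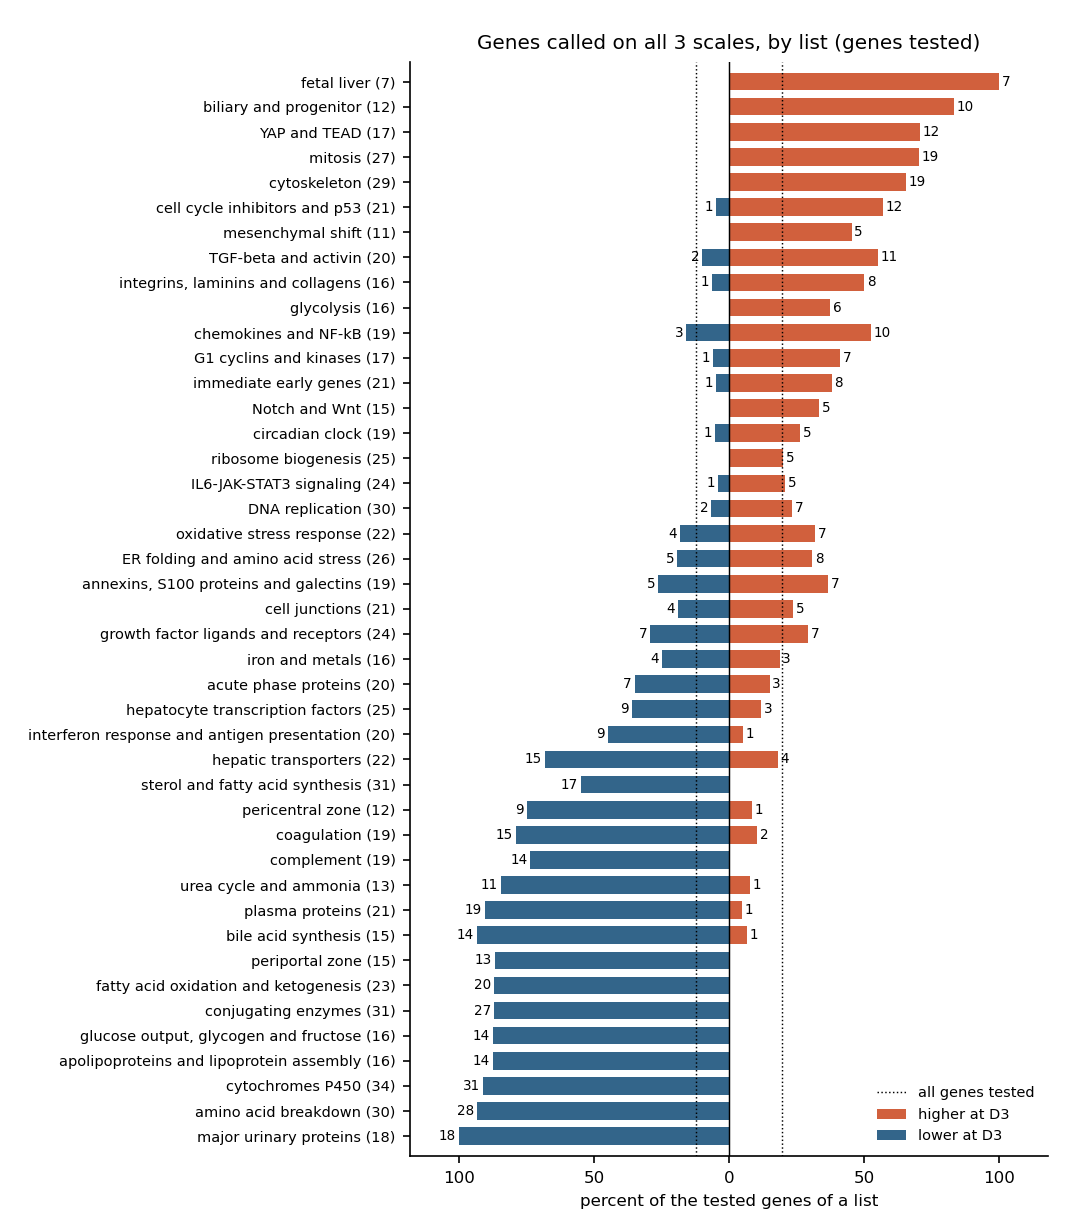
Percent of the tested genes of each list that rose (to the right) or fell (to the left) on all 3 scales, with the number of genes tested beside each list, the number called at each bar and dotted lines at the percentages over all genes tested. Metabolic and secretory lists reach far to the left, for instance the major urinary proteins with 18 of 18, and the fetal liver, biliary, YAP and mitosis lists far to the right, for instance fetal liver with 7 of 7.

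Of 21 plasma proteins tested, 19 fell, 1 rose and Trf did neither, with a median of -5.32. Alb, serum albumin, was at 47356, 48923 and 53749 FPKM in hepatocytes and at 398, 308 and 436 at D3, 131 times lower (-7.05 ± 0.14; adjusted p = 6.4e-11). Ttr, the thyroxine carrier transthyretin, was at 6205, 6617 and 6733 FPKM and then at 49.9, 59.1 and 63.7. Hrg, histidine-rich glycoprotein, fell by 7.92 and was the largest fall of the list. Albumin was still detected in every D3 sample, by 43055 reads or more. Trf, the iron carrier transferrin, behaved differently, with 6315, 6508 and 4806 FPKM and then 7979, 8385 and 7373. Its difference was 0.44 as deposited, -1.19 after scaling and -0.55 after length centring, so its direction depended on the scale. Cp, the copper-carrying ferroxidase ceruloplasmin, rose from 104, 124 and 106 FPKM to 1014, 1086 and 922, 9.05 times. Gc, the vitamin D binding protein, fell only from 3945, 4022 and 4375 FPKM to 1045, 1072 and 1067. These genes of one secretory function thus moved over a range from 3.17 to -7.92.

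Drug metabolism was lower nearly throughout. Of 34 cytochromes P450 tested, 31 fell and 0 rose, with a median of -7.05, and 19 of the 34 passed the filter only through hepatocytes. Cyp1a2, a pericentral oxidase of drugs and caffeine, was at 298, 320 and 273 FPKM and then at 0.427, 0.257 and 0.450, 786 times lower. Cyp3a11, the main Cyp3a enzyme of mouse liver, was at 704, 813 and 936 FPKM and then at 0.0770, 0.0862 and 0.0733. The 3 genes that were not called, Cyp4b1, Cyp2j6 and Cyp4f13, differed by -0.15, -0.16 and -0.75 as deposited. Of 31 conjugating enzymes 27 fell and 0 rose. The glucuronosyltransferases Ugt2b1 (205, 220 and 249 FPKM, then 0.145, 0.116 and 0.138) and Ugt2a3 (-6.98) fell most. Among the glutathione transferases, Gstp1 fell from a mean of 2510 to 412 FPKM and Gstm1 from 721 to 102.

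Hepatic transporters split. Of 22 tested, 15 fell and 4 rose. Among the 22, 4 passed the filter only through D3 and 7 only through hepatocytes, so the filter set the direction of these. Slc10a1 (NTCP), the sodium-dependent bile salt importer, was at 259, 292 and 284 FPKM and then at 0.858, 0.774 and 1.23. Slc22a30, an organic anion transporter, fell by 6.13, and the canalicular bile salt pump Abcb11 fell by 5.97. The 4 that rose were all efflux pumps. Abcc4 (MRP4), a basolateral exporter, was at 0.0497, 0.0556 and 0.0997 FPKM in hepatocytes and at 30.4, 23.6 and 31.3 at D3. Abcb1b, a multidrug exporter, was at 0.183, 0.208 and 0.155 FPKM and then at 13.6, 14.3 and 13.3. Abcc1 and Abcb1a rose by 3.17 and 2.57. In bile acid synthesis 14 of 15 genes fell, among them Akr1c6 by 9.53 and the 12-alpha-hydroxylase Cyp8b1 by 8.02. Cyp7a1, the rate-limiting enzyme, fell from a mean of 12.7 to 0.00315 FPKM. Cyp39a1, an oxysterol 7-alpha-hydroxylase, alone rose, from 2.86, 2.95 and 2.99 FPKM to 31.3, 32.9 and 34.0.

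In the urea cycle and ammonia list 11 of 13 genes fell. Arg1, the arginase that releases urea, was at 1075, 1062 and 1186 FPKM and then at 0.690, 0.699 and 0.611, 1661 times lower. Cps1, the entry enzyme of the cycle, was at 631, 804 and 669 FPKM and then at 3.22, 2.72 and 2.95. Gls2, the glutaminase of liver, fell from a mean of 296 to 11.1 FPKM. Glul, glutamine synthetase, went from 13.4, 14.5 and 13.1 FPKM to 50.3, 54.0 and 47.7. It was called higher as deposited (1.81) but not after scaling (0.25) or length centring (0.55).

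Of 30 genes of amino acid breakdown 28 fell and 0 rose, with a median of -6.14. Gnmt, glycine N-methyltransferase, fell by 9.89 and Tat, tyrosine aminotransferase, by 8.26. Fah, the last enzyme of tyrosine breakdown, fell less, from 370, 380 and 322 FPKM to 46.3, 43.5 and 39.9, 8.27 times. Within that tyrosine pathway Hpd fell by 9.79, Hgd by 6.64 and Gstz1 by 4.40. In the list of glucose output, glycogen and fructose 14 of 16 fell. Pck1, a key enzyme of gluconeogenesis, was at 644, 665 and 578 FPKM and then at 0.671, 0.558 and 0.645. Of 16 glycolysis genes 6 rose and 0 fell. Pkm, the pyruvate kinase of dividing tissues, was at 3.09, 3.00 and 2.69 FPKM and then at 293, 271 and 284, and Pklr, the liver form, fell from a mean of 59.1 to 28.1. Pfkp, a phosphofructokinase, rose by 4.25. Hk1, a hexokinase, rose by 2.85.

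Lipid genes fell in most cases. Of 23 genes of fatty acid oxidation and ketogenesis 20 fell and 0 rose, led by the peroxisomal thiolase Acaa1b (-7.59) and by Bdh1, the last step of ketone body synthesis (-5.44). Cpt1a, the entry step into mitochondria, was not called, with means of 41.0 and 62.6 FPKM. Of 31 genes of sterol and fatty acid synthesis 17 fell and 0 rose, with Insig1 at -4.397 and the desaturase Scd1 at -4.31. Scd2 was called higher as deposited (1.52) but not on the other scales, and Me1 differed by 1.41 as deposited and -0.17 after scaling. Of 16 genes of lipoproteins 14 fell and 0 rose. Apoa1, the main HDL protein, was at 16705, 14728 and 15365 FPKM and then at 18.4, 20.9 and 14.97, and Apoc1 fell by 9.70. Apob, the core protein of VLDL and a very long transcript, went from 29.1, 54.2 and 37.8 FPKM to 330, 347 and 390. Its difference of 3.15 as deposited was 1.54 after scaling and -0.35 after length centring.

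Of 19 coagulation genes 15 fell and 2 rose. Serpinc1, antithrombin, fell by 9.52, and Plg, plasminogen, was at 1044, 1043 and 1008 FPKM and then at 0.548, 0.626 and 0.534. The rises were Plat, the activator of plasminogen (0, 0 and 0.0139 FPKM, then 19.7, 18.96 and 21.3), and F3, tissue factor, the start of the clotting cascade (1.02, 0.929 and 0.898 FPKM, then 26.5, 26.1 and 26.7). Of 19 complement genes 14 fell and 0 rose, with the membrane attack genes C8a (-8.26) and C8g (-7.98) falling most. C3, the central component, was not called, with means of 2040 and 1248 FPKM. All 18 major urinary protein genes tested fell, 13 of them tested only through hepatocytes, by up to 11.47 for Mup12 and 9.06 for Mup7.

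Genes of both lobular zones fell. Of 12 pericentral genes tested 9 fell and 1 rose, and of 15 periportal genes 13 fell and 0 rose. In the pericentral list Rgn fell by 8.56 after Cyp2e1, and the neutral amino acid transporter Slc1a4 rose by 3.09. In the periportal list Cyp2f2, at 1232, 1388 and 1166 FPKM and then at 1.36, 1.33 and 1.44, and Pck1 fell most. Ctsc was higher as deposited (1.44) and at -0.12 after scaling.

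Of 25 transcription factors of hepatocytes tested, 9 fell and 3 rose, with a median of -1.12. Hnf4a, a master regulator of hepatocyte genes, was at 134, 139 and 147 FPKM in hepatocytes and at 207, 199 and 191 at D3. Its difference was 0.50 as deposited, -1.12 after scaling and -1.51 after length centring, so no direction is given. Foxa2 had a mean of 19.8 FPKM in hepatocytes and of 70.5 at D3 and was not called on all 3 scales. The largest falls were nuclear receptors. Nr0b2 (SHP), a repressor in bile acid feedback, was at 82.0, 74.1 and 66.6 FPKM and then at 1.302, 1.47 and 1.25, and Nr1i3 (CAR), a drug sensor, fell by 4.17. Cebpa, a factor of mature hepatocytes, fell from a mean of 274 to 47.7 FPKM. The rises were Ahr, the aryl hydrocarbon receptor (1.34, 1.77 and 1.22 FPKM, then 63.9, 57.2 and 70.1), Onecut2 (by 4.31) and Gata6 (by 2.94).

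The acute phase list divided. Of 20 genes tested 7 fell, 3 rose and 10 were not called on all 3 scales, with a median of -2.17. The rises were Lcn2, Saa3 and Steap4. Saa3, a serum amyloid A of extrahepatic tissues and macrophages, was at 8.54, 6.80 and 9.52 FPKM and then at 195, 260 and 100. Its D3 samples were spread widely (185 ± 80.5 FPKM, SD, n = 3), with all of them above the hepatocytes. Steap4, a metalloreductase, was at 19.95, 23.2 and 18.1 FPKM and then at 265, 236 and 227. The falls included Hamp, the iron hormone hepcidin, at 1196, 1110 and 1018 FPKM and then at 14.2, 9.56 and 13.3. Crp, C-reactive protein, fell from 195, 200 and 240 FPKM to 2.44, 3.18 and 1.99. Apcs, serum amyloid P, was at 176, 173 and 204 FPKM and then at 10.5, 9.25 and 7.61. Hp, haptoglobin, had means of 2463 and 3364 FPKM, and Fgb and Fga, fibrinogen chains, of 2732 and 6143 and of 1467 and 2789, none of them called on all 3 scales. Saa1 and Saa2 had means of 85.1 and 24.9 FPKM in hepatocytes and of 53.1 and 17.8 at D3.

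Of 24 genes of IL6-JAK-STAT3 signaling 5 rose, near the 19.8% of all genes tested, and 1 fell, against 12.3%. Among receptors, Osmr, the oncostatin M receptor, which also pairs with gp130, was at 0.0272, 0.0106 and 0.0655 FPKM and then at 35.7, 29.4 and 35, 969 times higher. Lifr, the leukemia inhibitory factor receptor, fell from 101, 107 and 101 FPKM to 11.3, 11.1 and 12.1, 8.96 times. Both are partners of the same chain, and they moved in opposite directions on every scale. Il6st itself had means of 8.85 and 45.9 FPKM and differences of 2.25 as deposited, 0.71 after scaling and -0.01 after length centring. Il6ra, the IL6-binding chain, had means of 3.38 and 7.13 FPKM. Stat3 had means of 25.4 and 95.9 FPKM and differences of 1.88, 0.28 and 0.04 on the 3 scales. Among kinases Jak2 rose by 3.47, while Jak1 was called on the first 2 scales only. Among targets Bcl6 rose from 1.72, 1.75 and 0.988 FPKM to 37.4, 30.4 and 39.2, Bcl3 rose by 3.35, and Cebpd, which acts with STAT3 on acute phase genes, rose from 3.94, 3.76 and 4.02 FPKM to 48.1, 38.04 and 45.7. Socs3, the feedback inhibitor of JAK, was at 67.0, 62.1 and 61.0 FPKM and then at 102, 90.9 and 103. Its difference of 0.63 as deposited was -0.98 after scaling.

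Promoters of Steap4, Apcs and Socs3 are shown because all hold the STAT letters TTCNNNGAA, yet the genes rose, fell and were not called. Each is the 250 bases before the RefSeq transcript start in GRCm38.p6, 5′ to 3′ on the gene's strand, with the match in capitals. The letters read the same on both strands, and positions count from the start. Steap4 lies at chr5:7960222-7960471 (plus strand, match at -116 to -108), Apcs at chr1:172895055-172895304 (minus strand, -244 to -236) and Socs3 at chr11:117969367-117969616 (minus strand, -154 to -146).
Steap4: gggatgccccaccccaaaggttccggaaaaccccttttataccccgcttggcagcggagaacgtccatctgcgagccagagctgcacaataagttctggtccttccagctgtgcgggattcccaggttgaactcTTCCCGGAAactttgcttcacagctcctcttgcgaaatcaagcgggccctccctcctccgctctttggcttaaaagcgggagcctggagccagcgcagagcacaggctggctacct
Apcs: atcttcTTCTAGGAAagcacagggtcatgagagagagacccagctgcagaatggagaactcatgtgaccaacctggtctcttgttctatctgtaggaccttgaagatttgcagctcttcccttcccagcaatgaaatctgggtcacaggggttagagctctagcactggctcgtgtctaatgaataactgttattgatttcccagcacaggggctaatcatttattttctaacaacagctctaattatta
Socs3: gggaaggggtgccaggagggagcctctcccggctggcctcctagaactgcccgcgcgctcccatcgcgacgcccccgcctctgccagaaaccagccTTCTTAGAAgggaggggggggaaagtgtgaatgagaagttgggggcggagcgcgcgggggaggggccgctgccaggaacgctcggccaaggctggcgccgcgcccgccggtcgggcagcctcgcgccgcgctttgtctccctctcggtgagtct
The letters stood in a promoter of 6 of 17 acute phase genes (35.3%), 4 of 23 of IL6-JAK-STAT3 signaling (17.4%) and 9.55% of all 27025 genes in the RefSeq table. These shares count a gene when any of its promoters matched, over a window that also ran past the start. A match describes the sequence only.

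Growth factor ligands, receptors and binding proteins were divided, with 7 rises and 7 falls among 24 genes. Of the 24, 7 passed the filter only through D3. The insulin-like growth factor (IGF) binding proteins moved apart. Igfbp2 was at 1250, 1036 and 1094 FPKM and then at 3.35, 2.96 and 4.44, and Igfals, the partner of IGF in serum, fell by 3.798. Igfbp3 had 0, 0.0312 and 0.0644 FPKM and then 62.2, 54.5 and 59.5, and Igfbp1 rose from 69.8, 73.0 and 65.4 FPKM to 891, 898 and 855. Ligands of the EGF receptor rose, namely Tgfa by 3.27, Areg by 2.07 and Hbegf by 1.85. The receptors for the growth factors of the medium were not called on all 3 scales. Egfr had means of 114 and 140 FPKM and Met, the HGF receptor, of 4.09 and 21.7. Ghr, the growth hormone receptor, fell by 1.29 and its target Igf1 by 1.70.

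Of 27 mitosis genes 19 rose and 0 fell, although 23 of the 27 passed the filter only through D3. Mki67 (Ki67), a nuclear protein of cycling cells, was at 0.00155, 0.00678 and 0.00745 FPKM in hepatocytes and at 7.81, 5.42 and 9.28 at D3 (3.05 ± 0.15; adjusted p = 1.5e-08). Foxm1, an activator of mitosis genes, was at 0.0810, 0.0384 and 0.0569 FPKM and then at 4.01, 2.15 and 4.34. Ube2c, which feeds the anaphase-promoting complex, was at 0.791, 0.444 and 0.705 FPKM and then at 17.7, 10.5 and 17.4. In all of these D3 replicate 2 was the lowest D3 sample and still above every hepatocyte sample. Prc1, a spindle midzone protein, rose by 3.45. The absolute levels at D3 stayed at 15.2 FPKM or less on average for every mitosis gene that rose.

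Of 17 G1 genes, 10 of them tested only through D3, 7 rose and 1 fell. Myc was at 2.00, 2.29 and 1.15 FPKM and then at 175, 126 and 166, and Cdk6 rose by 3.68. Ccnd1 (cyclin D1), which with Cdk4 and Cdk6 opens the G1 phase, went from 2.16, 2.21 and 2.33 FPKM to 12.1, 10.8 and 13.6. It was called higher as deposited (2.02), but not after scaling (0.68) or length centring (0.54). E2f8, a repressor among the E2F factors, fell by 1.31. Of 30 DNA replication genes, 9 of them tested only through D3, 7 rose and 2 fell, with 19.8% and 12.3% over all genes tested. Rrm2, which makes deoxynucleotides, rose by 2.97, and Mcm6, a subunit of the replicative helicase, rose from 1.47, 1.56 and 1.57 FPKM to 16.4, 15.2 and 19.01. Mcm2, Mcm3 and Mcm4 rose too, by 2.401, 2.37 and 2.77. Mcm10 (27.7, 28.7 and 28.2 FPKM, then 4.01, 2.90 and 3.81) and the thymidine kinase Tk1 (26.5, 27.0 and 26.2 FPKM, then 6.20, 6.55 and 6.15) fell. Barx2 and Mxd3, transcription factors named by the study, did not pass the filter. Barx2 had no read in hepatocytes and 0.177, 0.189 and 0.149 FPKM at D3, and Mxd3 had 0.227, 0.159 and 0.232 and then 0.676, 0.658 and 0.926.

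The promoter of Mcm6 (chr1:128359706-128359955, GRCm38.p6, minus strand, 250 bases before the start) is shown for its E2F letters. Of the forms searched on both strands (TTTCCCGC, TTTGGCGC, TTTCGCGC and TTTGCCGC) it holds matches at -110 to -103, -106 to -99 and -47 to -40, of which the first 2 overlap.
Mcm6: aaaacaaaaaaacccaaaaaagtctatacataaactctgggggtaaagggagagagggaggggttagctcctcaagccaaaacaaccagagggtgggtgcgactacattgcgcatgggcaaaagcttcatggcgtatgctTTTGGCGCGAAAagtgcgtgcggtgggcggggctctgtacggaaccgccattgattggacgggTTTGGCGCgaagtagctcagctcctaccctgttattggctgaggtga
Such letters were found in a promoter of 11 of 24 DNA replication genes (45.8%) and of 2.6% of all genes in the RefSeq table, over the longer window.

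Inhibitors of the cycle and targets of p53 rose alongside. Of 21 genes 12 rose and 1 fell. Trp53inp1 was at 0.803, 1.08 and 1.13 FPKM and then at 223, 273 and 241, and Phlda3, an inhibitor of AKT, rose by 6.16. Cdkn1a (p21), the inhibitor of G1 kinases, rose from a mean of 3.98 to 232 FPKM, 58.3 times, and Mdm2 and Ccng1 rose by 4.37 and 4.21. In FPKM, the mean level of Cdkn1a at D3 was above that of every mitosis gene tested. Gadd45g alone fell, from 105, 95.2 and 80.1 FPKM to 10.6, 11.5 and 12.6. Of 21 immediate early genes 8 rose and 1 fell. Klf6 was at 0.978, 0.936 and 0.694 FPKM and then at 310, 322 and 317, and Ier3 rose by 7.30. Fos fell from 59.99, 67.4 and 53.9 FPKM to 19.3, 17.9 and 17.9, while Jun had means of 113 and 95.5 FPKM and was not called.

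Genes of bile duct and progenitor cells rose. Of 22 listed 12 could be tested, 8 of them only through D3, and 10 rose and 0 fell. Spp1, osteopontin, was at 2.42, 2.28 and 2.97 FPKM and then at 418, 502 and 323. Sox9, a duct and progenitor factor, was at 1.396, 1.65 and 0.834 FPKM and then at 19.99, 20.1 and 21.2, 15.8 times higher. Krt19, a duct keratin, was at 0.0512, 0 and 0.0308 FPKM and then at 8.06, 6.77 and 9.55. Other duct markers were close to absent at D3. Krt7 had 0.155, 0.0930 and 0.432 FPKM and Epcam 0.247, 0.150 and 0.227, both under the filter. Elf3 was called higher as deposited (1.45) and after length centring (1.31), not after scaling (0.76). All 7 fetal liver genes that could be tested, of 14 listed, rose, 6 of them tested only through D3. Hmga2, a chromatin protein of fetal tissues, had no read in hepatocytes and 44.7, 44.9 and 39.1 FPKM at D3, and Igf2bp2 rose by 4.94. Afp, alpha-fetoprotein, rose from a mean of 0.208 to 7.52 FPKM.

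Cytoskeletal genes were higher in most cases. Of 29 cytoskeleton genes 19 rose and 0 fell, with a median of 1.60. Vim, vimentin, was at 2.18, 1.65 and 1.94 FPKM and then at 399, 451 and 401, and Flna, filamin A, rose by 6.71. The simple epithelial keratins Krt18 and Krt8 rose from means of 201 and 246 FPKM to 2599 and 1886. Of 19 annexins, S100 proteins and galectins 7 rose and 5 fell. Anxa3 was at 0.415, 0.226 and 0.133 FPKM and then at 258, 309 and 251, and S100a11 at 2.19, 2.15 and 3.52 and then at 719, 677 and 711. S100a1 fell by 3.28 and S100a9, a neutrophil gene, by 2.51.

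Of 16 integrins, laminins and collagens 8 rose and 1 fell, 10 of them tested only through D3. Fn1, fibronectin, was at 60.9, 90.7 and 41.4 FPKM and then at 2102, 1707 and 2006, and Col4a1, a basement membrane collagen, rose by 4.60. Col18a1, the basement membrane collagen that hepatocytes make, fell from 152, 160 and 119 FPKM to 28.3, 28.2 and 28.2. Of 21 junction genes 5 rose and 4 fell. Gjb1 (connexin 32), the gap junction of hepatocytes, was at 712, 674 and 679 FPKM and then at 1.09, 1.18 and 1.03, 626 times lower, and Cldn1 fell by 2.21. The scaffold Tjp1 (ZO-1) was at 1.305, 1.72 and 0.888 FPKM and then at 73.5, 65.6 and 75.1. Dsp, a very long desmosome transcript, was called on the first 2 scales (3.81 and 2.34) but not after length centring (0.95). Of 11 genes of a mesenchymal shift tested, 6 of them only through D3, 5 rose and 0 fell. These were Vim, Fn1, Timp1, Mmp14 and Zeb1, and Timp1 went from no read to 40.2, 42.0 and 40.1 FPKM, at least 775-fold above the floor. Cdh2, N-cadherin, had means of 7.45 and 44.3 FPKM and was not called on all 3 scales, and Cdh1, E-cadherin, had means of 16.9 and 21.9.

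The list of YAP, the growth-controlling partner of the TEAD factors, holds these factors, regulators and targets. Of its 17 genes tested, 8 of them only through D3, 12 rose and 0 fell, with a median of 2.54. Among the targets, after Ctgf, Ankrd1 rose most, from no read to 83.9, 79.6 and 83.8 FPKM, at least 3210-fold above the floor, and Cyr61 rose by 5.84. The factors Tead1 and Tead2 rose by 5.72 and 4.78, while Yap1 was called only as deposited, with means of 13.9 and 73.2 FPKM. Of 20 TGF-beta and activin genes 11 rose and 2 fell, 12 of them tested only through D3. The receptor Tgfbr1 rose by 5.44. The activin subunits exchanged, since Inhbc (-4.16) and Inhbe (-1.998) fell and Inhba rose by 5.16. Of 15 Notch and Wnt genes tested, out of 28 listed, 5 rose and 0 fell, and 6 of the 15 were tested only through D3. The ligand Jag1 rose from 0.148, 0.128 and 0.150 FPKM to 15.4, 14.8 and 17.4, the receptors Notch2 and Notch1 rose by 3.88 and 3.85, and the target Hes1 rose by 2.83.

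**Figure D4:**
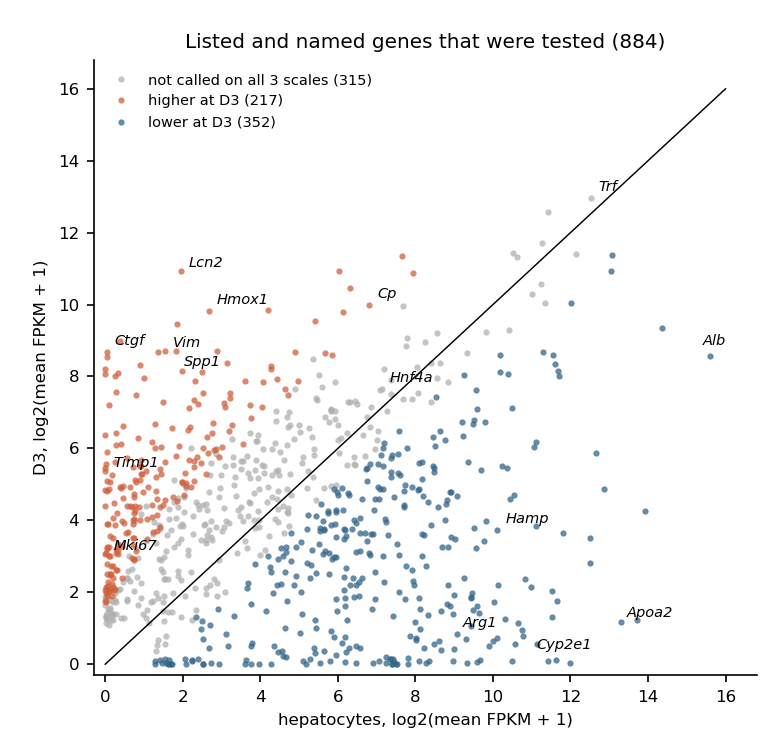
Mean level at D3 against mean level in hepatocytes, both as log2(mean FPKM + 1), for the 884 listed and named genes that were tested, 1 point per gene. The 217 genes that rose and the 352 that fell lie on opposite sides of the diagonal (the line of equal levels), and most of the 315 others lie between them, on or above it.

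Stress lists contained rises and falls. Of 22 genes of the oxidative stress response 7 rose and 4 fell. Hmox1, heme oxygenase-1, was at 5.27, 5.39 and 5.45 FPKM and then at 907, 769 and 1026, 168 times higher. Nfe2l2 (NRF2), the factor that drives many of these genes, rose by 5.24, and Gclc, the rate-limiting enzyme of glutathione synthesis, rose from a mean of 78.3 to 1406 FPKM. Nqo1, a classical NRF2 target, was not called, with means of 3.95 and 3.33 FPKM. The antioxidant enzymes Sod1 (1506, 1309 and 1477 FPKM, then 131, 159 and 126) and Gpx1 (by 3.25) fell. In the list of ER folding and amino acid stress 8 of 26 genes rose and 5 fell. Those that rose were genes of serine and asparagine synthesis, amino acid uptake and the ATF4 response, among them Phgdh (0.315, 0.103 and 0.171 FPKM, then 48.8, 47.0 and 48.7) and Asns (by 4.58). Those that fell most were the chaperone cofactor Sdf2l1 (by 2.60) and the mitochondrial Shmt2 (by 1.46).

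Of 25 ribosome biogenesis genes 5 rose and 0 fell, with 19.8% and 12.3% over all genes tested. Npm1, nucleophosmin, was at 17.4, 20.2 and 16.97 FPKM and then at 281, 326 and 271, and Nop58 rose by 3.49. Of 16 iron and metal genes 3 rose and 4 fell. The metallothioneins Mt2 (15.7, 19.8 and 16.4 FPKM, then 962, 955 and 829) and Mt1 (by 4.13) rose. After Hamp, Hfe2 fell by 2.91. Of 19 clock genes, 7 of them tested only through D3, 5 rose and 1 fell, with Per1 higher by 3.87. Rora was called on the first 2 scales only. The hour of sampling of the fresh liver was not used here.

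Inflammatory genes moved in both directions. Of 19 chemokine and NF-kB genes 10 rose and 3 fell, and of the 19, 5 were tested only through D3 and 4 only through hepatocytes. Ccl2, which attracts monocytes, was at 0, 0.0320 and 0.176 FPKM and then at 121, 213 and 110, and Icam1, an adhesion molecule, rose by 4.84. Ccl9 fell from 39.0, 39.0 and 47.1 FPKM to 0.251, 0.255 and 0.189, and Cxcl12 fell by 2.91. Of 20 genes of the interferon response and antigen presentation 9 fell and 1 rose. Irf7 was at 97.3, 90.7 and 87.2 FPKM and then at 2.83, 2.25 and 3.03, Isg15 fell by 2.87 and Ifit2 rose by 2.54. Nlrc5 was called on the first 2 scales only (2.48 and 1.19).

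Markers of cell types were measured beside these groups. In bulk samples fewer cells of a type and less RNA per cell cannot be told apart. Of the 10 hepatocyte markers, all at high levels in the fresh cells, 8 fell and 0 rose, and their summed level was 84100 to 88760 FPKM in hepatocytes and 8094 to 8990 at D3, of which Trf alone held 7373 to 8385. Of 10 cholangiocyte markers 5 could be tested, 2 of them only through D3, and 4 rose. The sum went from 6.23 to 9.18 FPKM up to 665 to 796, of which Cldn4 held 252 to 293 and Spp1 most of the rest. The 5 others, among them Epcam and Krt7, were under the filter. Kupffer cell and macrophage markers summed to 28.6 to 33.6 and then to 22.0 to 27.6 FPKM, of which Cd68 alone held 20.7 to 26.5 at D3. Of 7 tested (13 listed) 6 fell, all 6 tested only through hepatocytes. Clec4f, Marco and Timd4, which define resident Kupffer cells, were at 0 in every D3 sample. Cd68, tested only through D3, alone rose, from 0.768, 0.548 and 0.697 FPKM to 26.5, 20.7 and 25.4. Lymphocyte markers fell in 4 of 4 cases (11 listed), from sums of 12.1 to 12.8 FPKM to 0.184 to 0.265. Neutrophil markers fell in 2 of 2 cases (8 listed), from 8.01 to 9.24 FPKM to 0.0647 to 0.193. Red blood cell markers fell in 4 of 4 cases (7 listed), from 107 to 124 FPKM to 0.322 to 0.437. All 4 lymphocyte, 2 neutrophil and 4 red blood cell markers were tested only through hepatocytes, so the filter set the direction of these counts.

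Markers of liver endothelium summed to 28.4 to 32.0 FPKM in hepatocytes and to 14.9 to 17.9 at D3. Clec4g, tested only through hepatocytes, alone of the 9 tested (11 listed) fell on all 3 scales. Cdh5 had 0.837, 1.06 and 0.778 FPKM and then 2.78, 2.74 and 2.20. Of 13 stellate cell and fibroblast markers 1 could be tested, Ecm1, and only through D3. It rose by 2.26, and the summed level of the list went from 1.45 to 1.87 up to 7.23 to 9.64 FPKM. Of 6 mesothelial markers 0 passed the filter, and their sum reached 0.801 FPKM at most. The part of other cell types in the rises and falls was not tested.

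Samples at day 14 of culture with IL6 (IL6-iHPCs-D14, passage 0, n = 3) were compared with D3, and whether both days came from the same cultures or mice is not stated in the sources used here. D14 minus D3, in a fit of these 3 groups with the D3 samples shared by both comparisons, called 1068 genes (9.45%), 445 higher (3.94%) and 623 lower (5.51%). All calls of D14 minus D3, here and below, rest on the values as deposited alone, unlike the rises and falls at D3. After scaling 886 genes were called. Of the 2233 genes that rose by D3, 1905 (85.3%) were not called between D3 and D14, 207 were then lower and 121 higher. Of the 1386 that fell, 1109 were not called, 115 were then lower and 162 higher. A gene without a call is not shown to have the same level on both days. Some hepatocyte genes were among those higher at D14. Alb stood at 3828, 4141 and 3244 FPKM at D14 (3.30 above D3), Plg at 38.6, 45.8 and 38.9 (4.74) and Gjb1 at 64.6, 72.4 and 58.2 (4.97), all still under the hepatocyte level. Cyp2e1 and Arg1 were not called, with means of 0.0494 and 1.14 FPKM at D14.

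Some rises were highest at D3. Cldn4 had 3.96, 3.05 and 3.93 FPKM at D14, 5.85 lower than at D3, Hmox1 had 66.7, 57.1 and 60.9 (3.84 lower), Ctgf had 61.4, 64.4 and 72.3 (2.61 lower) and Cd68 had 2.76, 2.54 and 3.18 (2.71 lower). The acute phase gene Saa3 was 3.03 lower than at D3, and Hamp was a further 2.76 lower. Other genes were higher again at D14. Spp1 reached 3936, 4371 and 4001 FPKM (3.33 above D3), Krt19 reached 54.1, 46.6 and 45.3 (2.45), Ccnd1 reached 69.5, 53.5 and 60.5 (2.24), Sox9 was 1.52 higher and Afp had a mean of 259 FPKM. Mki67 and Foxm1 had means of 7.66 and 3.92 FPKM at D14 and were not called.

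**Figure D5:**
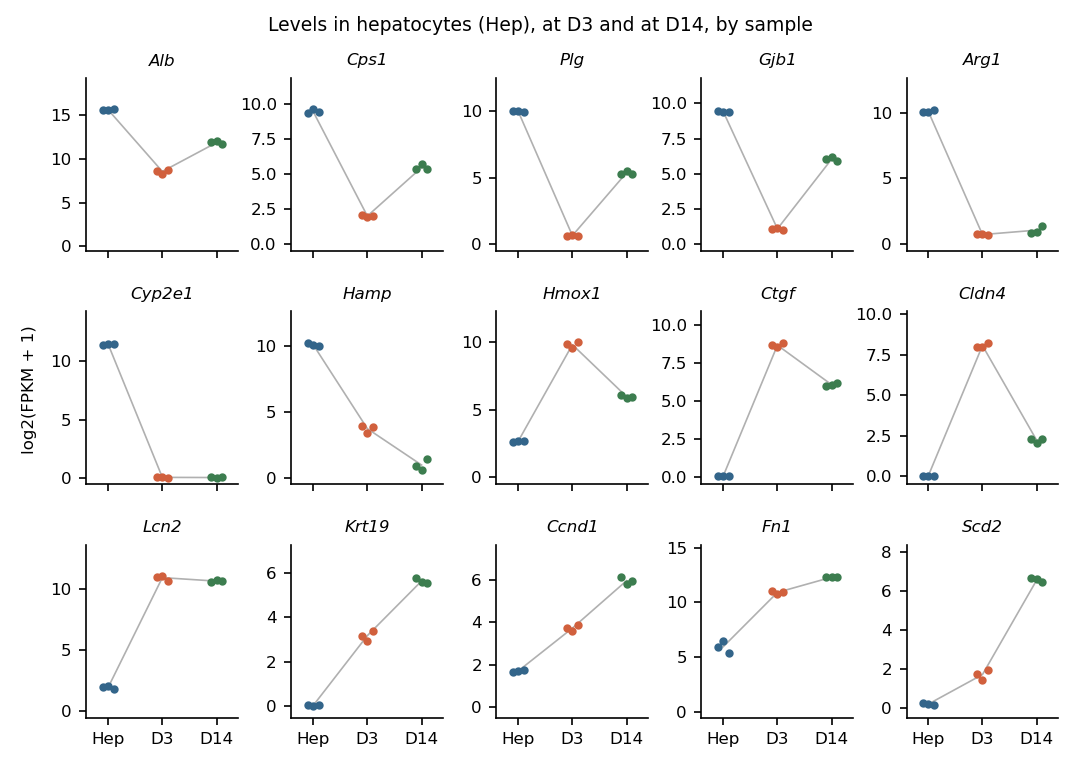
log2(FPKM + 1) of single genes in hepatocytes (Hep), at D3 and at D14, 1 point per sample with a line through the group means. Levels such as those of Cldn4 and Hmox1 peak at D3, Alb, Plg and Gjb1 are low at D3 and partly regained at D14, and Krt19 and Ccnd1 are higher again at D14.

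A culture without IL6 was available for day 7 only. That table, normalized separately, was held here in part, and 276 of its genes were tested. Calls at D7 rest on the values as deposited alone. There D7 with minus without IL6 called 15 genes (5.43%), 13 higher and 2 lower, and 12 after scaling. D7 without IL6 minus primary hepatocytes called 149 (54.0%), 126 higher and 23 lower. Of the 35 genes that rose at D3 and were tested at D7, 32 were higher at D7 without IL6 than in primary hepatocytes and 0 lower, 5 were higher with IL6 than without it and 1 was lower. Of the 13 that fell at D3, 4 were lower at D7 without IL6, 1 (Pparg) was higher and 0 differed by IL6. The sets are small and days 3 and 7 differ, so these counts do not assign the D3 changes to IL6 or to culture.

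The 6 genes that rose at D3 and differed by IL6 at D7 are named here. Cebpd had 2.75, 2.66 and 2.98 FPKM in primary hepatocytes, 11.3, 8.62 and 9.05 at D7 without IL6 and 58.9, 74.5 and 63.2 with it, a difference of 2.64 (adjusted p = 1.3e-09). Serpina7, thyroxine-binding globulin, had risen from a mean of 2.25 to 445 FPKM at D3, and at D7 it had 11.9, 12.8 and 11.7 FPKM without and 78.7, 63.2 and 85.2 with IL6 (2.53). Both genes were also higher at D7 without IL6 than in primary hepatocytes. Nupr1, a stress-induced nuclear protein, had a mean of 15.1 FPKM at D3 and at D7 of 7.68 without and 28.9 with IL6 (1.79). Fam129a and Adm2 were higher with IL6 by 1.48 and 1.35. Igfbp1 went the other way, with 2454, 2472 and 2380 FPKM without and 983, 1029 and 965 with IL6, a difference of -1.295 (adjusted p = 4.4e-10), while its mean at D3, with IL6, was 881 FPKM against 69.4 in hepatocytes.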

How the data were processed

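Purified polyadenylated RNA of 3 samples per group was sequenced, and the authors deposited 1 value per gene and sample, taken here as FPKM that they made from reads mapped to genes. The unit is read from the values, which are all whole multiples of a step for each gene and sample (tolerance 0.02). It is not known whether the reads so recovered are read pairs. The submitters' processing notes name TopHat 1.4.1, Cufflinks 1.3.0 and mm10. The table held 19357 rows and 19355 symbols, 27 of them turned into dates by a spreadsheet, and no column of the 6 samples was left out. Replicates of a group differed by more than sampling noise (median chi-square per gene 2.46 to 8.6).

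The fit was limma 3.58.1 (R 4.3.3, trended prior) on log2(FPKM + 1) of the 6 samples alone, and for D14 and D7 of the groups named there. Benjamini-Hochberg adjustment ran over every gene in a fit, and a call needed an adjusted p-value under 0.05 and 2-fold. Length centring divided out a lowess trend (span 0.3, 8642 genes of at least 1 FPKM in both group means). It and the rule that a gene must be called on all 3 scales were chosen after the data had been seen. Genes named were those the study names, the 10 largest rises and falls and, from each list, the 2 largest of each kind, with others as stated, and some are not reported here. The genes and lists were chosen with earlier results of these data known.

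Promoters are from RefSeq (GRCm38.p6), matched by symbol. In values simulated for this comparison over 11299 genes, 99 of 100 changes of 1.5 (log2) and 100 of 100 of 3 were called, with 0 wrong calls. Only these genes were given a change, while 71.7% of the genes were called in the data as deposited. A shift of most genes was not tested in this way. A trend with length was planted in such values to try the length centring, and its outcome is not reported here. Alternatives were a pseudocount of 0.1, other filters and fold limits, quantile normalization, voom on recovered reads, a replicate block, all 33 samples of the table in the fit, and leaving out each sample. Tables were read with Python 3.11.15, pandas 2.3.3 and numpy 2.4.6, and figures drawn with matplotlib 3.10.9. P-values cover technical repeats only.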

Additional observations from a re-analysis of the deposited data

How the results depend on the processing

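The higher and lower calls (6603 and 1493 as deposited) were 3051 and 3445 after median-of-ratios scaling, 3087 and 2635 after quantile normalization, 3874 and 3643 with voom on recovered reads, and 3087 and 2480 with length centring, which was chosen after seeing the data. Calls made on the values as deposited and after length centring were opposite for 68 genes. Without a fold limit 2345 genes were lower, and at 4-fold 4227 changed, 3441 higher and 786 lower. The median over genes, 1.295 as deposited, was 0.056 after scaling, 0.436 without a filter, 1.658 with a pseudocount of 0.1, 0.169 after quantile normalization, 0.067 with voom and 0.229 with length centring. With a pseudocount of 0.1, D14 minus D3 called 1680 genes and D7 with minus without IL6 called 25.

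Reversals were listed only for the genes named by rule, which are those the study names, the largest changes and the cell type markers. The cause was not tested beyond the construction of each scale. Genes outside this set changed sign too, among them Socs3 and Atf4 (1.03 as deposited and -0.581 after scaling). After scaling the genes named by rule that reversed were Ctsc (-0.124), Hnf4a (-1.117), Me1 (-0.167) and Trf (-1.185). After quantile normalization they were Pecam1 (-1.007), Ppargc1a (-0.241), Stab1 (-1.02) and Stab2 (-1.165). With voom they were Ctsc (-0.132), Hnf4a (-1.123), Me1 (-0.174), Stab2 (-1.248) and Trf (-1.187). With length centring they were Apob (-0.351), Hnf4a (-1.506), Me1 (-0.045), Ppargc1a (-0.117), Stab1 (-1.054) and Stab2 (-1.142). Over the genes named by rule and the alternatives, 3082 values kept direction and call, 45 lost the call, 32 gained it and 19 reversed.

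Leaving out each sample in turn gave 8059 to 8125 changed genes, 6545 to 6628 higher and 1452 to 1561 lower, with medians of 1.274 to 1.309. On all 3 scales it gave 3505 to 3701 genes, 2151 to 2322 that rose and 1354 to 1420 that fell. D14 minus D3 then called 1062 to 1111 genes and D7 with minus without IL6 12 to 15. Where a group was left with 2 samples, the fit pooled the spread over both groups.

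Hepatocyte and D3 samples share replicate numbers, but same-numbered samples did not deviate together (r of their deviations 0.0543, -0.39 and -0.261). Deviations between technical repeats hold differences between libraries, so whether the numbers pair samples by mouse or preparation cannot be told. With the replicate number as a block, 8096 genes changed (6603 higher, 1493 lower; median 1.295), and no named gene changed its call.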
